A study of Mus musculus with 16 samples.

Results

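The transcripts of 10 transcription factors that act in group 2 innate lymphoid cells (ILC2s) or their precursors were followed. Lung ILC2s were studied under 4 cytokine and neuropeptide conditions and 2 genotypes. Several of the factors are shared with other lymphocytes. The genes were *Id2*, *Ets1*, *Tcf7*, *Gata3*, *Rora*, *Bcl11b*, *Gfi1*, *Bhlhe40*, *Maf*, and *Ahr*. They were chosen by name, with earlier results of these data known, and are 10 of the 51912 genes in the count table. All 10 passed the filter on low counts, which left 14979 genes for the fit across all libraries. Each library was made by bulk mRNA-Seq with full-length amplification, from a lysate of about 500 ILC2s.

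The ILC2s came from WT mice or from *Pac1-/-* mice, both on the C57BL/6J background and aged 6 to 8 weeks. *Pac1-/-* mice lack *Dusp2*, the gene of the phosphatase PAC1, in every cell and not in ILC2s alone. All groups received IL-7 at 100 ng/mL for 4 hours. It was given alone, with IL-33 at 100 ng/mL (IL-33 libraries), with IL-33 plus CGRP at 500 ng/mL (CGRP libraries), or with IL-33 plus NMU at 500 ng/mL (NMU libraries). IL-33 is an alarmin that activates ILC2s, and CGRP and NMU are neuropeptides known to restrain and to stimulate them, respectively. The study's culture methods describe expansion of sorted lung ILC2s in IL-2 and IL-7 before stimulation. Each of the 8 groups had 2 libraries, and all 16 were used. Whether the libraries of a group came from separate mice is not stated, so *P* values measure the spread between these libraries, which may be technical.

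Libraries held from 6764992 to 15963357 counts (median 11071278), so that 3 counts equalled 0.188 to 0.443 counts per 1000000 (CPM). *Dusp2* itself was at 0 counts in all 8 *Pac1-/-* libraries but also in 6 of the 8 WT ones, and thus could not check the genotype of most libraries. The 15 ILC2 surface and effector genes examined were detected in every group, though not each in every library. Their summed level was 13831 to 39908 CPM per library. Much of that sum was *Il5* (5192 to 27500 CPM) and *Calca* (2438 to 7901 CPM). *Il17rb* and *Nmur1* were low, at 0 to 27.2 and 0 to 16.3 CPM. *Tbx21*, *Cd8a*, *Cebpa*, and *Sftpb*, which mark other cells, had 0 counts in all 16 libraries. All other genes of their marker lists had counts in some or all libraries. Some markers of other cells moved with the treatment. The 5 B cell genes summed to 271 to 283 CPM in the *Pac1-/-* CGRP libraries, 35.4 to 78.2 CPM in the WT CGRP libraries, and at most 43.1 CPM elsewhere. The 10 T cell genes summed to 758 to 833 CPM in the IL-7 libraries and to 205 to 859 CPM elsewhere, and the 6 NK cell and ILC1 genes to 118 to 240 CPM in the IL-7 libraries and to at most 5.3 CPM elsewhere. The 7 epithelial genes summed to 175 to 308 CPM and the 7 myeloid genes to 39.7 to 123 CPM in the WT NMU libraries, against at most 83.4 and 15.96 CPM elsewhere. The 5 mast cell and basophil genes summed to 315 to 333 CPM in the WT CGRP libraries and to 111 to 254 CPM elsewhere. Some of these sums came mostly from a few genes. In the IL-7 libraries *Gzma* had 112 to 222 CPM, and the next NK cell or ILC1 gene, *Klrb1c*, at most 15.1 CPM. *Trbc2* had 455 to 541 CPM in the IL-7 libraries. *Lyz2* had 112 and 28.0 CPM in the WT NMU libraries, *Sftpc* 179 and 94.6 CPM, and *Scgb1a1* 90.5 and 40.9 CPM. In the *Pac1-/-* CGRP libraries *Cd79b* had 163 and 161 CPM and *Ms4a1* 84.5 and 75.3 CPM. In the WT CGRP libraries *Cpa3* had 151 and 174 CPM and *Kit* 164 and 144 CPM. The part of these markers in the results was not tested. Replicates correlated least in the CGRP libraries (Pearson's *r* across 14979 genes of 0.781 and 0.793, against 0.838 to 0.892 in the other groups).

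ILC2s arise from common lymphoid progenitors through steps that are set by transcription factors. ID2 blocks E proteins, and TCF-1 (*Tcf7*) and ETS1 act in the early precursors. GATA3, RORα (*Rora*), BCL11B, and GFI1 then establish and keep the ILC2 program, with GATA3 also acting on the type 2 cytokine genes. BHLHE40, c-MAF (*Maf*), and AHR are shared with other lymphocytes, in which they respond to activation or to environmental ligands and tune cytokine production.

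The 10 transcripts spanned a wide range of levels. To compare genes, counts were divided by exon length and scaled to transcripts per 1000000 (TPM). *Id2* stood at 2296 ± 489 TPM (mean ± SD, *n* = 16 libraries), rank 59 of the 31977 genes with any level. *Gata3* followed at 334 ± 131 TPM, *Rora* at 176 ± 53.4 TPM, and *Ets1* at 75.2 ± 33.9 TPM. Each of *Id2*, *Gata3*, and *Rora* was above the next gene in 16 of 16 libraries, so that this part of the order held in every library. *Bhlhe40* had 56.5 ± 42.2 TPM and was below *Ets1* in 12 of 16 libraries. *Maf* had 17.0 ± 5.995 TPM, *Gfi1* 13.7 ± 10.5 TPM, and *Bcl11b* 11.0 ± 6.88 TPM. *Ahr* had 6.81 ± 4.72 TPM and *Tcf7* 6.14 ± 4.55 TPM. Among these last 5 genes, neighbours in the order differed by less than their spread, and *Maf* was above *Gfi1* in 9 of 16 libraries only.

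**Figure D1:**
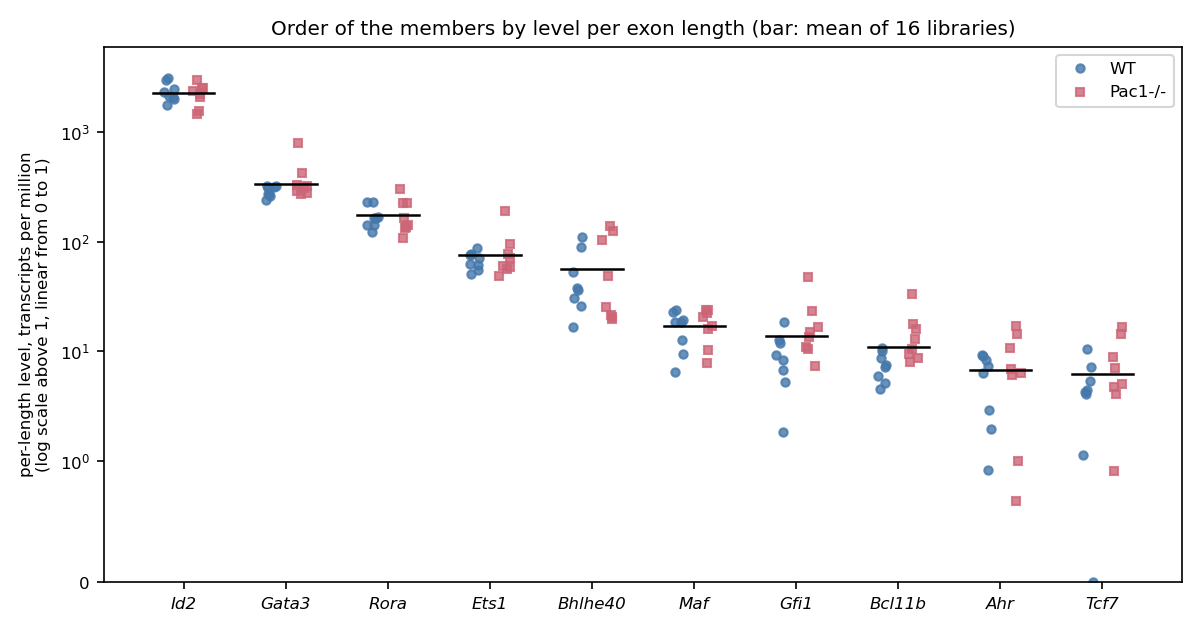
Per-length level of each of the 10 transcription factor genes in TPM (y axis, log scale above 1 and linear from 0 to 1) in 8 WT libraries (blue circles) and 8 *Pac1-/-* libraries (red squares), with a bar at the mean of 16. *Id2* lay between 1469.7 and 3158 TPM in every library, above all other members, whereas the 5 genes from *Maf* to *Tcf7* overlapped.

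Differential expression was tested with the quasi-likelihood method of edgeR, *P* values were adjusted by the Benjamini-Hochberg method over all genes tested, and a gene was called at a fold change above 1.5 and an adjusted *P* value under 0.05. The treatments were compared in 1 fit of 16 libraries with genotype as a covariate, and log2 fold changes are given ± SE. Levels below are CPM scaled by TMM, which suits comparison of 1 gene between libraries. In bulk libraries, fewer cells that express a gene and less RNA per cell cannot be told apart. The 4 treatment comparisons share libraries with one another, so their values are given side by side.

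The comparison of IL-33 with IL-7 asks how the alarmin alone changed these transcripts. None of the 10 genes was called by edgeR, where 0.0134% of all genes tested were called (2 of 14979), or by DESeq2, where 1.2% were called (173 of 14398). The edgeR count over all genes was 3 to 18 when a library was left out. At an unadjusted *P* value under 0.05 there were 3 members, *Gfi1*, *Maf*, and *Bhlhe40*, and 1421 of all genes. The median log2 fold change of the members was 0.14, and that of all genes was 0.06. *Bhlhe40* had a log2 fold change of 0.78 ± 0.256 (adjusted *P* = 0.496), *Gfi1* of 1.21 ± 0.499 (adjusted *P* = 0.502), and *Maf* of -0.68 ± 0.264 (adjusted *P* = 0.498).

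The comparison of CGRP with IL-33 asks what the neuropeptide added to the alarmin. The transcripts of *Bhlhe40*, *Id2*, and *Rora* were higher with CGRP, by 2.70-fold, 1.65-fold, and 1.57-fold, whereas the other 7 members were not called. Thus 3 of 10 members were called, all of them higher, where 2.46% of all genes tested were called and 1.64% were called higher. By level these members ranked 59 (*Id2*), 800 (*Rora*), and 1827 (*Bhlhe40*) of 31977 genes. The share called among genes of like level was not computed, here or for CGRP against NMU. DESeq2 called the same 3 members and 8.52% of all genes. The 368 genes called by edgeR became 180 without *Pac1-/-* IL-33 replicate 1 and 207 without WT IL-33 replicate 1. With TMM, 66.6% of the 368 genes called were higher with CGRP. With library totals in place of TMM, 465 genes were called and 38.5% of them were higher, and that scaling shifted the log2 fold changes of all genes by a median of -0.24 in this comparison. The median shift was 0.20 for IL-33 against IL-7, -0.14 for NMU against IL-33, and -0.10 for CGRP against NMU. The median log2 fold change of the 10 members was 0.11, and that of all genes was -0.05.

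*Bhlhe40* (chr6:108660629-108666925, plus strand, mm10) encodes a basic helix-loop-helix repressor that binds E-box DNA and controls cytokine genes in lymphocytes. Its level in WT ILC2s was 70.3 and 79.1 CPM with IL-7, 109 and 90.1 CPM with IL-33, 249 and 294 CPM with CGRP, and 39.6 and 69.5 CPM with NMU. In *Pac1-/-* ILC2s it was 53.8 and 63.0 CPM with IL-7, 90.9 and 172 CPM with IL-33, 354 and 353 CPM with CGRP, and 60.0 and 43.8 CPM with NMU. All 4 CGRP libraries were above all 12 others, and the 4 NMU libraries were below all 4 IL-33 libraries. Against IL-33, the log2 fold change with CGRP was 1.44 ± 0.258 (adjusted *P* = 0.00721 by edgeR). It was 1.46 in WT libraries alone (adjusted *P* = 0.187) and 1.43 in *Pac1-/-* libraries alone (adjusted *P* = 0.175), with 8 libraries in each fit, and was not called in either. These fits called 0 of the 10 members and 0.142% (WT) and 0.415% (*Pac1-/-*) of all genes. *Bhlhe40* stayed called when any 1 of the 16 libraries was left out, including each *Pac1-/-* CGRP library, with adjusted *P* values of 0.00163 to 0.0319.

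*Id2* (chr12:25093799-25097140, minus strand) encodes the inhibitor that sequesters E proteins, and it is needed for all helper-like innate lymphoid cells. In WT ILC2s its level was 2985 and 2660.4 CPM with IL-7, 2518 and 3190.2 CPM with IL-33, 4361 and 4312 CPM with CGRP, and 2543 and 1677 CPM with NMU. In *Pac1-/-* ILC2s it was 3049.9 and 3058 CPM with IL-7, 2443 and 1802 CPM with IL-33, 3961 and 3707 CPM with CGRP, and 2139.8 and 1788 CPM with NMU. The lowest CGRP library was thus above every library of the other treatments, and the *Pac1-/-* CGRP libraries lay below the WT CGRP libraries. Against IL-33, the log2 fold change with CGRP was 0.72 ± 0.167 (adjusted *P* = 0.0303 by edgeR). The call was lost without *Pac1-/-* IL-33 replicate 1 or 2, WT IL-33 replicate 1, or any of the 4 CGRP libraries, with adjusted *P* values of 0.0576 to 0.0894 and log2 fold changes of 0.62 to 0.75 in these 7 fits. With library totals the log2 fold change was 0.49, under the 1.5-fold cutoff.

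*Rora* (chr9:68653786-69388246, plus strand) encodes a nuclear receptor without which ILC2s fail to develop. In WT ILC2s its level was 1063 and 1168 CPM with IL-7, 938 and 1180.0 CPM with IL-33, 1805 and 1697 CPM with CGRP, and 799 and 729 CPM with NMU. In *Pac1-/-* ILC2s it was 979 and 983 CPM with IL-7, 854 and 1401 CPM with IL-33, 1609 and 1772 CPM with CGRP, and 838 and 841 CPM with NMU. The CGRP libraries were the 4 highest and the NMU libraries the 4 lowest of the 16. Against IL-33, the log2 fold change with CGRP was 0.65 ± 0.158 (adjusted *P* = 0.0388 by edgeR). This call was the least stable of the 3. It held when *Pac1-/-* IL-33 replicate 2, WT NMU replicate 2, or *Pac1-/-* NMU replicate 1 was left out, and was lost without any 1 of the other 13 libraries, with adjusted *P* values of 0.0608 to 0.205 and log2 fold changes of 0.55 to 0.68 in those fits. With library totals the log2 fold change was 0.40 (adjusted *P* = 0.220).

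CGRP acts on a receptor that raises cAMP, and the 250 bases before the annotated starts of the members were searched for the cAMP response element. RefSeq promoter windows (GRCm38.p6) were found for 6 of the 10 members, at 8 starts in all, and 5 of these windows held 67 to 250 annotated exon bases. *Bhlhe40*, *Maf*, *Ets1*, and *Ahr* were not searched. On either strand, the full element TGACGTCA was in 0 of these 8 windows and in 1.55% of the 32851 windows of all genes, and its core TGACG, which overlaps it, was in 0 of 8 and in 17.8% of all windows. The E-box CACGTG that BHLHE40 binds was in 0 of 8 and in 6.02% of all. The *Id2* window held CCAAT at 3 places, 159, 120, and 76 bases before the start, and 33.8% of all windows held this box. The *Rora* window (chr9:68653536-68653785, plus strand) is shown because it lies before the first base of the gene and holds no annotated exon. The capitals mark its single match to the AHR core motif GCGTG, read here on the opposite strand 167 bases before the start, which 28.2% of all windows held.
Rora: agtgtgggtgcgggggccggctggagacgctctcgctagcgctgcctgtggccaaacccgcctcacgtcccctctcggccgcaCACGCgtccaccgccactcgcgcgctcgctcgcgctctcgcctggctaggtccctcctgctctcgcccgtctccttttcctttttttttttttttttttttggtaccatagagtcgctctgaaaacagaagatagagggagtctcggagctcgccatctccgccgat
These windows cover 1 annotated start of *Rora*, and which start was used in these ILC2s was not tested. The core AGGTCA bound by ROR factors, which 14.0% of all windows held, was found in 1 member window (*Tcf7*, 13 bases before a start), as was GATAA, held by 22.6% of all windows (*Tcf7*, 63 bases before its other start). No annotated exon covered that last window, but its GATAA lies in an open reading frame that begins within the window. Whether that stretch is coding was not tested.

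*Maf* (chr8:115682942-115707794, minus strand), the gene of a bZIP factor known for its role in IL-4 and IL-10 expression of T cells, had a different course. In WT ILC2s its level was 87.9 and 108 CPM with IL-7, 45.5 and 81.5 CPM with IL-33, 94.7 and 105 CPM with CGRP, and 38.6 and 20.8 CPM with NMU. In *Pac1-/-* ILC2s it was 111 and 95.5 CPM with IL-7, 55.7 and 68.6 CPM with IL-33, 71.5 and 99.8 CPM with CGRP, and 38.6 and 40.2 CPM with NMU. The 4 IL-33 libraries were below the 4 IL-7 libraries and above the 4 NMU libraries, and they overlapped the CGRP libraries. The log2 fold change of CGRP against IL-33 was 0.56 ± 0.263 and was not called (adjusted *P* = 0.312 by edgeR).

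**Figure D2:**
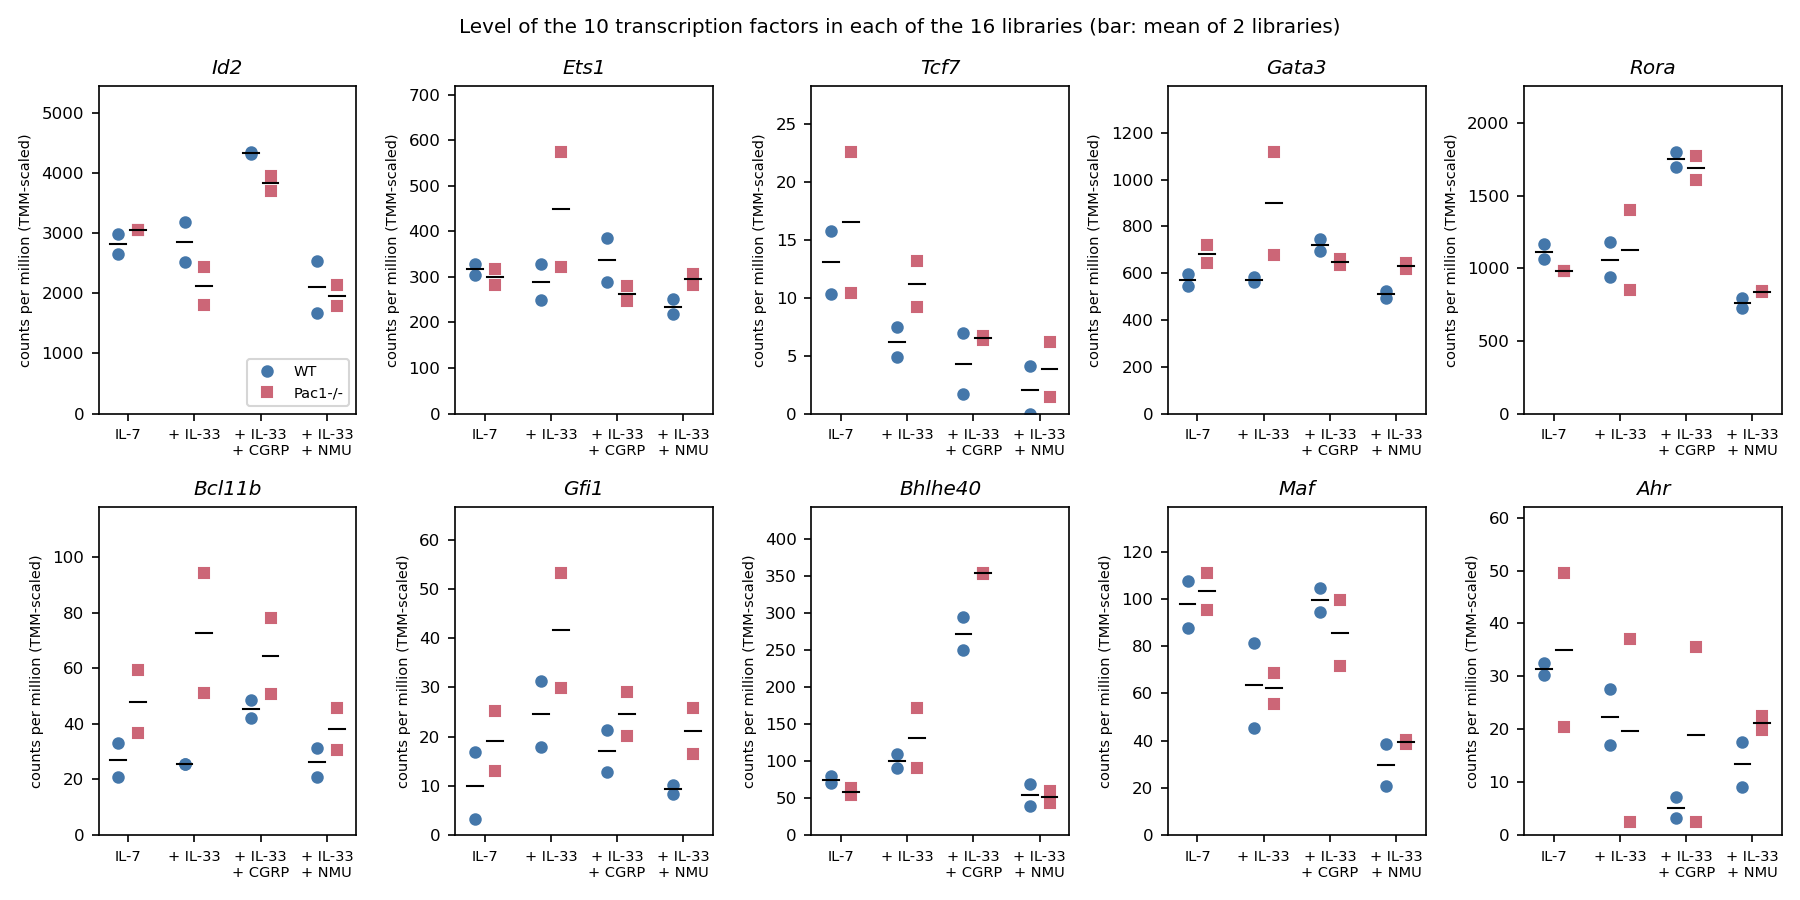
TMM-scaled CPM (y axis, linear and starting at 0) of each member in the 2 WT libraries (blue circles) and the 2 *Pac1-/-* libraries (red squares) of each treatment (x axis), with bars at the group means. *Bhlhe40*, *Id2*, and *Rora* were higher in all 4 CGRP libraries than in any other library, and *Maf* was lowest in the NMU libraries. *Pac1-/-* IL-33 replicate 2 was the highest of the 16 libraries for *Gata3* (1119.8 CPM), *Ets1* (576 CPM), *Bcl11b* (94.3 CPM), and *Gfi1* (53.2 CPM).

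Among the ILC2-programming factors, *Gata3* (chr2:9857078-9890034, minus strand) was not called in any treatment comparison. Its level in WT ILC2s was 571 ± 34.5 CPM with IL-7, 572 ± 13.0 CPM with IL-33, 719 ± 37.0 CPM with CGRP, and 510 ± 19.9 CPM with NMU (SD, *n* = 2). In *Pac1-/-* ILC2s it was 680.5 ± 54.9 CPM with IL-7, 899 ± 312 CPM with IL-33, 648 ± 20.8 CPM with CGRP, and 631 ± 15.9 CPM with NMU. The highest group mean was 1.76 times the lowest. *Pac1-/-* IL-33 replicate 2 alone reached 1119.8 CPM, and its other replicate had 678 CPM. Against IL-33, *Gata3* had a log2 fold change of -0.07 ± 0.183 with CGRP (adjusted *P* = 0.913 by edgeR), which was 0.17 without that library. This pooled value averages opposite moves, with a log2 ratio of mean CPM of 0.33 in WT and -0.47 in *Pac1-/-* ILC2s.

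*Bcl11b* (chr12:107910403-108003602, minus strand), the gene of a zinc finger factor that keeps ILC2s from other fates, ranged from 20.8 to 94.3 CPM. *Gfi1* (chr5:107716657-107726036, minus strand), which encodes a zinc finger repressor needed for ILC2 maintenance, ranged from 3.21 to 53.2 CPM. With CGRP against IL-33, *Bcl11b* had a log2 fold change of 0.30 ± 0.338 and *Gfi1* of -0.63 ± 0.494, neither of them called. For *Gfi1* the treatments overlapped, with 17.9 to 53.2 CPM in the IL-33 libraries and 12.8 to 29.1 CPM in the CGRP libraries.

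Of the factors of early precursors, *Ets1* (chr9:32636221-32757820, plus strand) ranged from 218 to 576 CPM and had a log2 fold change of -0.27 ± 0.230 with CGRP against IL-33. *Tcf7* (chr11:52252371-52283014, minus strand), the gene of TCF-1, was the least abundant member. Its 4 IL-7 libraries had 10.4 to 22.7 CPM, its IL-33 libraries 4.91 to 13.2 CPM, its CGRP libraries 1.65 to 6.95 CPM, and its NMU libraries 0 to 6.21 CPM. The IL-7 libraries were above all CGRP and NMU libraries and overlapped the IL-33 libraries. The T cell and NK cell marker sums of the IL-7 libraries, given above, were also high. *Cd3d* had 73.9 to 103 CPM in these libraries and at most 27.5 CPM elsewhere. The highest T cell sum (859 CPM) was that of *Pac1-/-* NMU replicate 1. In that library *Trbc2* had 721 CPM and *Tcf7* 1.43 CPM. The part of other cells in the *Tcf7* level was not tested. In WT NMU replicate 1 *Tcf7* had 0 counts, which allows a level of up to 0.443 CPM (3 counts, counting error only). The fitted log2 fold change of *Tcf7* was -0.82 ± 0.919 for IL-33 against IL-7, -0.66 ± 0.918 for CGRP against IL-33, and -1.56 ± 0.937 for NMU against IL-33, none of them called.

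*Ahr* (chr12:35497974-35535038, minus strand), the gene of a ligand-activated factor that senses aromatic compounds, varied most between replicates together with *Tcf7*. The IL-33 libraries of *Pac1-/-* ILC2s had 2.45 and 37.0 CPM, and their CGRP libraries 35.5 and 2.46 CPM. The pooled coefficient of variation between replicates was 70.8% for *Ahr* and 71.2% for *Tcf7*, against 13.1% for *Gata3*, 14.1% for *Rora*, and 15.1% for *Id2*. Differences in *Ahr* of the size seen between treatments were therefore not separable from replicate error. Over all libraries, 758 counts were assigned to a gene on the other strand that shares exon bases with *Ahr*, against 3795 for *Ahr*. The same held for *Gfi1*, with 394 counts against 3866. The use of strand in counting is not stated, so these reads cannot be told apart.

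NMU against IL-33 asks the same of the stimulating neuropeptide. None of the 10 members was called by edgeR, where 0.154% of all genes tested were called (23). DESeq2 called 1 member, *Bhlhe40*, which was lower with NMU, and 1.72% of all genes (257). The edgeR count over all genes became 44 without WT NMU replicate 2. All 10 members had a negative log2 fold change, with a median of -0.48, and the median over all genes was -0.08. At an unadjusted *P* value under 0.05 there were 4 members (*Bhlhe40*, *Maf*, *Rora*, and *Gfi1*) and 1010 of all genes. *Bhlhe40* had a log2 fold change of -1.11 ± 0.257 (adjusted *P* = 0.152 by edgeR and 0.00359 by DESeq2), *Maf* of -0.87 ± 0.266 (adjusted *P* = 0.395 by edgeR), and *Rora* of -0.45 ± 0.158 (adjusted *P* = 0.565 by edgeR). For these 3 genes the NMU libraries lay below the IL-33 libraries without overlap. The share of all genes with such separation was not computed, here or in the other treatment comparisons. Nor was the share of all genes with a negative log2 fold change. Across all genes, 23 were called and 87.0% of them were higher with NMU, and with library totals 21 were called and 66.7% were higher.

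When the neuropeptides were compared with each other, *Bhlhe40*, *Maf*, *Rora*, and *Id2* were higher with CGRP than with NMU. The 4 calls of 10 stood beside 4.97% of all genes called in this comparison and 2.49% called higher. DESeq2 called the same 4 members and 12.9% of all genes. The 744 genes called by edgeR became 462 without *Pac1-/-* NMU replicate 2 and 488 without WT NMU replicate 1. *Bhlhe40* was 5.84-fold higher, with a log2 fold change of 2.55 ± 0.269 (adjusted *P* = 4.5e-05 by edgeR). *Maf* was 2.69-fold higher, with a log2 fold change of 1.43 ± 0.269 (adjusted *P* = 0.00502 by edgeR). *Rora* was 2.15-fold higher (log2 1.10 ± 0.160, adjusted *P* = 0.000712 by edgeR) and *Id2* 2.003-fold higher (log2 1.002 ± 0.168, adjusted *P* = 0.00206 by edgeR). For each of the 4 genes the 4 CGRP libraries were above the 4 NMU libraries, and each call held when any 1 of the 16 libraries was left out. In the libraries of a single genotype only *Bhlhe40* was called, with a log2 fold change of 2.32 in WT and 2.77 in *Pac1-/-* ILC2s. Of all genes, 0.546% were called in WT libraries (69) and 0.762% in *Pac1-/-* libraries (101), also fewer than in the fit of 16 libraries. There the other 3 genes had log2 fold changes of 1.05 to 1.75 in WT libraries and 0.97 to 1.12 in *Pac1-/-* libraries. The median log2 fold change of the 10 members was 0.84, and that of all genes was 0.08. Across all genes, 744 were called and 50.1% of them were higher with CGRP, against 39.7% of 839 with library totals.

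**Figure D3:**
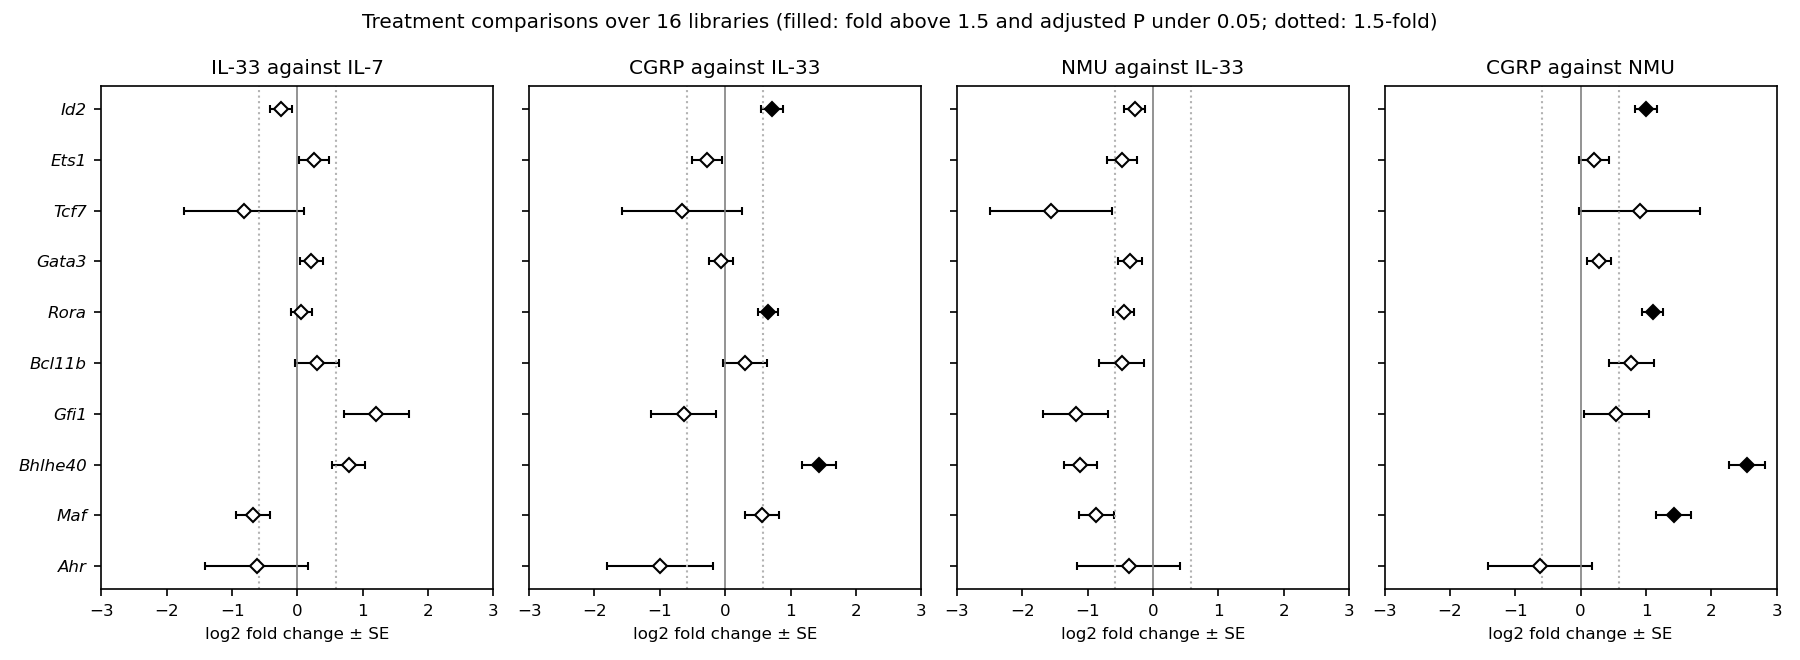
Log2 fold change ± SE (x axis) of each member in the 4 treatment comparisons over 16 libraries. Filled diamonds mark a fold above 1.5 with an adjusted *P* value under 0.05, of which there were none for IL-33 against IL-7, 3 for CGRP against IL-33, none for NMU against IL-33, and 4 for CGRP against NMU, and dotted lines mark 1.5-fold.

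The members were set beside 69 other transcription factors and partners of ILCs, of which 57 were tested. With IL-33 against IL-7, 0 of the 57 were called by edgeR. With CGRP against IL-33, 3 were called higher and 2 lower, and with NMU against IL-33, 0 were called higher and 1 lower. With CGRP against NMU, 8 were called higher and 4 lower. Of the 30 other ILC lineage factors, 2 were higher and 2 lower with CGRP against IL-33, and 6 were higher and 3 lower with CGRP against NMU. *Lmo4*, which encodes a LIM-domain adaptor, had a log2 fold change of 1.47 ± 0.174 with CGRP (adjusted *P* = 0.000181 by edgeR) and of -1.43 ± 0.174 with NMU (adjusted *P* = 0.0015 by edgeR), each against IL-33. Its level was 949 to 1181 CPM in the CGRP libraries, 297 to 487 CPM in the IL-33 libraries, and 134 to 147 CPM in the NMU libraries, with no overlap. *Klf6*, a Krüppel-like zinc finger factor, had a log2 fold change of 1.44 ± 0.297 with CGRP against IL-33. *Batf* and *Irf4*, partner factors of activated lymphocytes, were lower with CGRP, with log2 fold changes of -1.74 ± 0.279 and -2.11 ± 0.446. *Irf4* had 38.7 to 139 CPM in the NMU libraries and 2.44 to 8.27 CPM in the CGRP libraries, and *Batf* 189 to 277 CPM and 32.5 to 71.4 CPM.

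**Figure D4:**
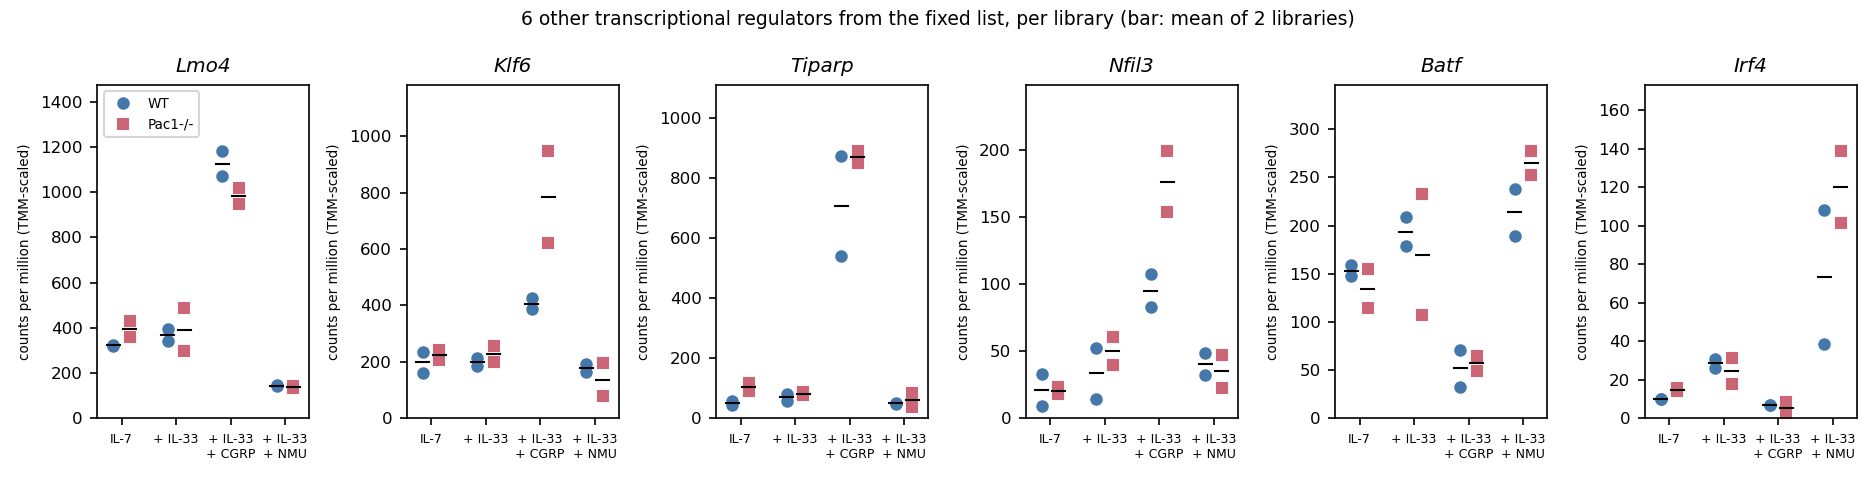
TMM-scaled CPM (y axis, starting at 0) of 6 other regulators in WT (blue circles) and *Pac1-/-* (red squares) libraries by treatment, with bars at group means. *Lmo4*, *Klf6*, *Tiparp*, and *Nfil3* were highest and *Batf* and *Irf4* lowest in the 4 CGRP libraries.

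Partners of the members were examined gene by gene. Of the 6 genes of the AHR pathway, 4 were tested, and *Tiparp*, an AHR target that encodes a repressor of AHR, was called higher with CGRP. Its log2 fold change was 3.37 ± 0.287 against IL-33 and 3.84 ± 0.293 against NMU, with 539 to 889 CPM in the CGRP libraries and 36.6 to 117 CPM in the other 12. The remaining AHR genes were not called. *Cyp1a1* had at most 2.39 CPM in any library, and *Cyp1b1* had 0 counts. Of the 5 partners of TCF-1, *Tle4*, which encodes a Groucho corepressor, was called higher with CGRP against NMU (log2 1.45 ± 0.394, adjusted *P* = 0.0443 by edgeR). Of the 6 E protein and ID genes, 5 were tested and 0 were called, and *Tcf12*, an E protein gene, had a log2 fold change of -0.00 ± 0.357 with CGRP against IL-33. Of the 13 relatives of the members, 8 were tested and 0 were called in any treatment comparison. The closest relative of *Bhlhe40*, *Bhlhe41*, had at most 0.646 CPM. Among 10 factors of other lineages, 6 were tested and *Irf8* was called, lower with CGRP than with NMU (log2 -4.67 ± 0.719). The other calls between CGRP and NMU were *Nfil3* (log2 1.79 ± 0.464), *Zeb1* (1.55 ± 0.335), *Ikzf2* (1.61 ± 0.381), and *Ikzf3* (1.30 ± 0.263), all higher with CGRP, and *Rbpj* (log2 -0.73 ± 0.181), which was lower.

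The genotype was compared next, to ask whether loss of PAC1 altered these transcripts. Over all treatments, none of the 10 members was called between *Pac1-/-* and WT ILC2s by edgeR or DESeq2, where 0.0801% and 0.603% of all genes tested were called, respectively. At an unadjusted *P* value under 0.05 there were 2 members, *Bcl11b* and *Gfi1*, and 921 of all genes. *Bcl11b* had a log2 fold change of 0.85 ± 0.241 (adjusted *P* = 0.595 by edgeR) and *Gfi1* of 0.85 ± 0.352 (adjusted *P* = 0.803). For *Bcl11b*, the WT libraries had a lowest level of 20.8, a median of 28.4, and a highest of 48.6 CPM, and the *Pac1-/-* libraries had 30.6, 51.0, and 94.3 CPM. Both *Pac1-/-* libraries were above both WT libraries in 3 of the 4 treatments, with overlap in the NMU libraries. The share of all genes with this pattern was not computed. For *Gfi1*, the same values were 3.21, 14.8, and 31.3 CPM in WT and 13.1, 25.5, and 53.2 CPM in *Pac1-/-* libraries. The highest value of both genes was that of *Pac1-/-* IL-33 replicate 2. Leaving out 1 library gave log2 fold changes of 0.71 to 0.94 for *Bcl11b* and 0.69 to 1.08 for *Gfi1*. *Rora* had a log2 fold change of -0.00 ± 0.112, *Id2* of -0.15 ± 0.118, *Gata3* of 0.26 ± 0.129, and *Bhlhe40* of 0.09 ± 0.180. The remaining 4 members had log2 fold changes of 0.06 to 0.66.

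Within a treatment, none of the 10 members was called by edgeR or DESeq2. The share of all genes called by edgeR was 0.00916% with IL-7, 0.00874% with IL-33, 0% with CGRP, and 0.0282% with NMU, and by DESeq2 it was 0.775%, 0.6%, 2.05%, and 0.621%. These edgeR counts changed when single libraries were left out. With IL-7, 1 gene was called with all 4 libraries and 0 without any 1 of them. With IL-33, 1 gene was called with all 4 libraries, 103 without WT replicate 1, 14 without WT replicate 2, and 0 without *Pac1-/-* replicate 2. With NMU, 3 were called with all 4 libraries, 77 without *Pac1-/-* replicate 2, 12 without *Pac1-/-* replicate 1, and 1 without WT replicate 1. The fit of 8 groups called 16 genes with CGRP. The only member with an unadjusted *P* value under 0.05 was *Bcl11b* with IL-33, and over all genes there were 626, 577, 822, and 535 such genes, respectively. *Bcl11b* had 25.4 CPM in both WT and 51.2 and 94.3 CPM in the *Pac1-/-* IL-33 libraries, a log2 fold change of 1.53 ± 0.509 (adjusted *P* = 0.913 by edgeR). *Bhlhe40* with CGRP was 249 and 294 CPM in WT and 354 and 353 CPM in *Pac1-/-* ILC2s, a log2 fold change of 0.36 ± 0.185 (adjusted *P* = 0.828 by edgeR). *Id2* with CGRP had a log2 fold change of -0.19 ± 0.112 (adjusted *P* = 0.888 by edgeR). The summed B cell genes were higher in the *Pac1-/-* CGRP libraries than in the WT CGRP libraries, and the part of those reads in these values was not tested.

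**Figure D5:**
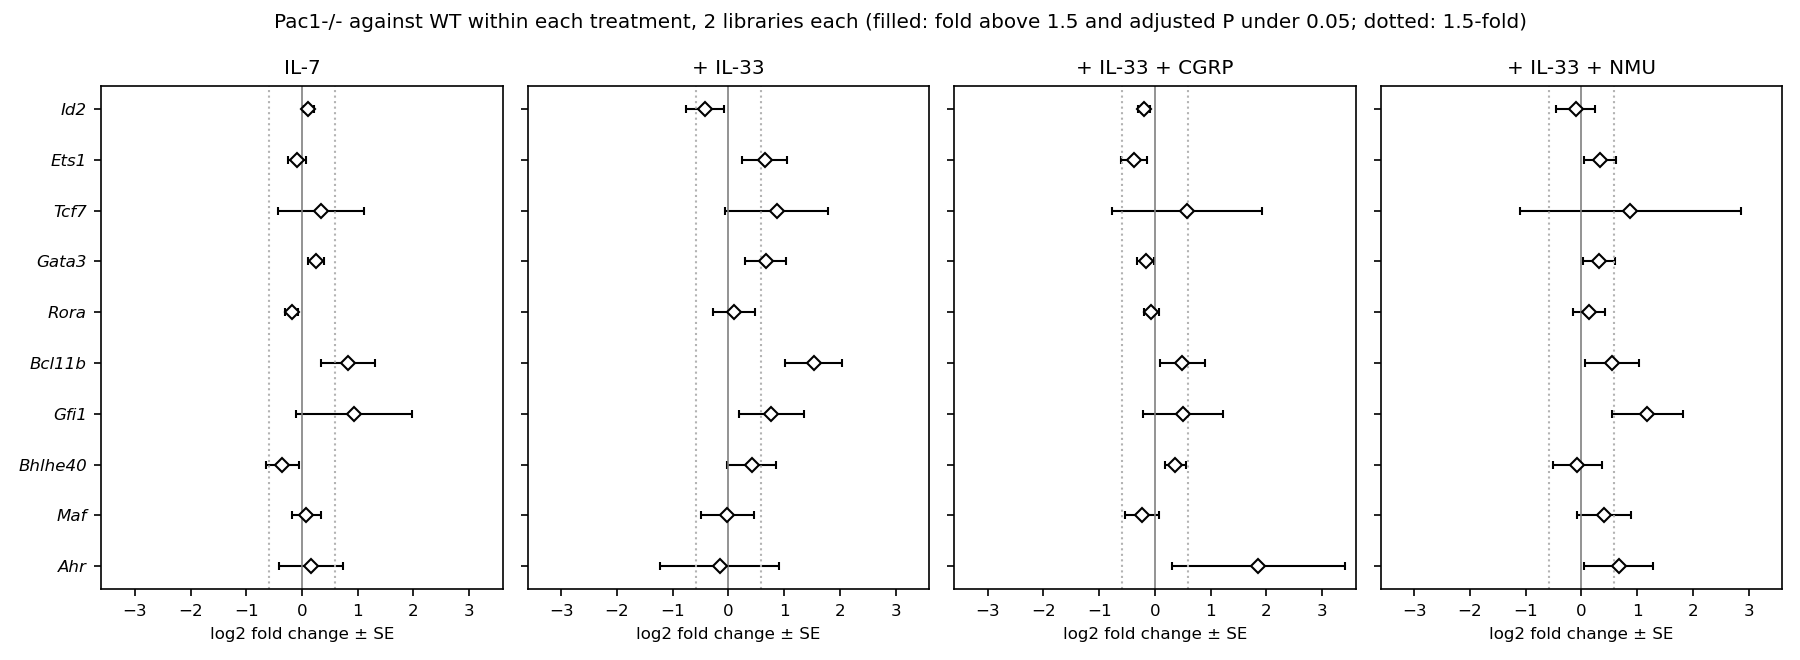
Log2 fold change ± SE (x axis) of *Pac1-/-* against WT ILC2s for each member in each treatment, with 2 libraries per genotype. No diamond is filled, since no member passed a fold of 1.5 with an adjusted *P* value under 0.05, and the SE was widest for *Tcf7* with NMU (1.98) and *Ahr* with CGRP (1.55).

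Whether the response to a treatment differed between the genotypes was tested as an interaction. For the responses to IL-33, CGRP, and NMU, 0 of 10 members were called by edgeR or DESeq2, 0 had an unadjusted *P* value under 0.05 by edgeR, and 0% of the 12980, 13160, and 12567 genes tested were called by edgeR, against 0.301%, 0.863%, and 0.333% by DESeq2. Leaving out 1 library gave up to 6 genes for IL-33 (without *Pac1-/-* IL-7 replicate 2), 56 for CGRP (without WT CGRP replicate 2), and 21 for NMU (without *Pac1-/-* NMU replicate 2), and 0 members in each. At an unadjusted *P* value under 0.05 there were 734, 719, and 801 of all genes. The interaction of *Bhlhe40* with CGRP was -0.05 ± 0.485 on the log2 scale, that of *Rora* -0.17 ± 0.397, and that of *Id2* 0.23 ± 0.312. The SEs were larger than each of these differences.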

How the data were processed

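Sorted mouse lung ILC2s were profiled by paired-end 150 bp mRNA-Seq. The authors aligned reads to mm10 with HISAT2 and deposited 1 table of raw counts per gene for 16 libraries. The counting tool, its annotation, and its use of strand are not given in the sources used here. Groups came from the sample labels, and table columns were matched to them by name. Counts were fitted with edgeR 4.0.16 (R 4.3.3) after TMM scaling and the default low-count filter, using the quasi-likelihood test with Benjamini-Hochberg adjustment. Treatments and the overall genotype were tested in 1 additive fit of 16 libraries, genotypes within a treatment in its 4 libraries, and interactions in 8 libraries. The SE was taken as the size of the log2 fold change divided by the square root of its *F* statistic. TPM used exon lengths of GENCODE M21, which also gave coordinates. Intervals and floors cover counting error only. The alternatives were RLE scaling, library totals, no filter, a minimum of 10 counts, a replicate block, DESeq2 1.42.0, other sample sets, and leaving out each library. The fit for CGRP against IL-33 was also run on counts simulated with the spread estimated from these data. The other comparisons were not simulated. The named genes were the 10 members, called genes of the listed regulators, and a few partners named after their values were seen. The members and lists were chosen with earlier results of these data known.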

Additional observations from a re-analysis of the deposited data

Results flagged for a closer look

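In sets of 4 libraries of 1 treatment, 3 of 40 sets held a library far from the others by Dixon's criterion, which chance meets in about 1 in 20 sets. *Tcf7* in WT CGRP replicate 2 was 1.65 CPM, against 6.34 to 6.95 CPM in the other 3 CGRP libraries. *Maf* in WT NMU replicate 2 was 20.8 CPM, against 38.6 to 40.2 CPM in the other NMU libraries. *Ahr* in *Pac1-/-* CGRP replicate 1 was 35.5 CPM, against 2.46 to 7.12 CPM in the other CGRP libraries.

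The members were also examined for opposite moves of the genotypes in 40 comparisons of treatments. For 2 members, *Gata3* and *Ets1*, all libraries of 1 genotype moved one way with a treatment and those of the other genotype the opposite way. With 2 libraries per group such moves can arise by chance, and the share of all genes with them was not computed. For *Gata3*, the log2 ratio of mean CPM with CGRP against IL-33 was 0.33 in WT and -0.47 in *Pac1-/-* ILC2s, a difference of -0.80, and the interaction was not called (adjusted *P* = 0.853 by edgeR). For *Ets1*, the ratio of CGRP against NMU was 0.53 in WT and -0.16 in *Pac1-/-* ILC2s, a difference of -0.69 that was not tested.

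Some members, *Gata3* among them, had both *Pac1-/-* libraries above both WT libraries in 1 treatment and below both in another. For such pairs of treatments not covered above, the genotype ratio (*Pac1-/-* against WT, log2 of means) is given here. Changes of sign in which libraries overlapped are not listed. With 2 libraries per group such separation can arise by chance, and the share of all genes with it was not computed. For *Id2* it was 0.11 with IL-7 and -0.43 with IL-33, a difference of -0.54, and the interaction was not called (adjusted *P* = 0.797 by edgeR). For *Id2* it was -0.18 with CGRP, which differed from IL-7 by -0.29. For *Gata3* it was 0.25 with IL-7, -0.15 with CGRP, and 0.31 with NMU, so that CGRP differed from IL-7 by -0.40 and NMU from CGRP by 0.46. For *Bhlhe40* it was -0.35 with IL-7 and 0.38 with CGRP, a difference of 0.73. For *Rora* it was -0.18 with IL-7 and 0.14 with NMU, a difference of 0.32. The differences between CGRP and IL-7, NMU and IL-7, and NMU and CGRP were not tested.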

How the results depend on the processing

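Of 515 fold changes of members under alternatives other than leaving out a library, 482 kept their direction and side of the threshold, 16 lost and 2 gained a call, and 15 changed sign. For CGRP against IL-33 the members called numbered 1 with library totals, 0 in WT and 0 in *Pac1-/-* libraries alone (both chosen after seeing the data), and 1 to 3 when a library was left out. For NMU against IL-33, 1 member (*Bhlhe40*) was called with at least 10 counts in every library (a filter that removed *Tcf7*) and 1 by DESeq2. For CGRP against NMU, 1 was called in WT and 1 in *Pac1-/-* libraries alone. *Rora* also lost its call for CGRP against IL-33 in the fit of 8 groups (adjusted *P* = 0.0515 by edgeR) and in only the 8 libraries compared (0.142). The genotype change of *Rora* turned from -0.00 to 0.01 with RLE (0.00713), no filter (0.00613), at least 10 counts (0.0130), and DESeq2 (0.00708), and to 0.0453 with library totals. In WT libraries alone, signs turned for IL-33 against IL-7 in *Rora* (-0.0753), *Bcl11b* (-0.0893), *Id2* (0.0156), and *Ets1* (-0.13), for CGRP against IL-33 in *Gata3* (0.34) and *Ets1* (0.24), and for NMU against IL-33 in *Bcl11b* (0.0477). In *Pac1-/-* libraries alone they turned in *Bcl11b* (CGRP against IL-33, -0.17), *Ahr* (NMU against IL-33, 0.11), and *Ets1* (CGRP against NMU, -0.16). Leaving out 1 library gave ranges across 0 for IL-33 against IL-7 in *Gata3* (-0.0492 to 0.30), *Rora* (-0.13 to 0.14), *Bcl11b* (-0.0761 to 0.45), and *Ets1* (-0.0668 to 0.41), for CGRP against IL-33 in *Gata3* (-0.18 to 0.17) and *Ets1* (-0.47 to 0.0201), and for the genotype in *Rora* (-0.0715 to 0.0639), *Maf* (-0.0369 to 0.15), and *Bhlhe40* (-0.0262 to 0.19). The cause of these changes was not tested. Genes called for IL-33 against IL-7, CGRP against IL-33, NMU against IL-33, CGRP against NMU, and the overall genotype were 2, 368, 23, 744, and 12, against 173, 1078, 257, 1706, and 78 by DESeq2. Without a filter they were 163, 705, 101, and 62 for the comparisons other than CGRP against NMU. The first 4 were 6, 230, 13, and 495 in only the 8 libraries compared, 0, 18, 0, and 69 in WT libraries, and 0, 55, 7, and 101 in *Pac1-/-* libraries. At least 10 counts gave 6 and 44 for IL-33 and NMU, and 8 groups gave 5 for IL-33 against IL-7. Within IL-7, IL-33, CGRP, and NMU the genotype calls were 1, 1, 0, and 3, against 28, 18, 82, and 32 without a filter and 78, 66, 202, and 66 by DESeq2. The 3 interactions had 0 calls each, against 20, 44, and 20 without a filter and 33, 96, and 37 by DESeq2. Leaving out 1 library moved the genes called to 3 to 18, 180 to 422, 19 to 44, 462 to 792, and 10 to 16 for the treatment comparisons and the overall genotype, in the order above. Same-numbered replicates did not deviate together over the fitted genes (28 pairs, *r* of -0.0641 to 0.0390, 0 over 0.1). A pairing that affects few genes would not show in this measure, so it cannot exclude that the libraries were paired. The fit with the replicate block called 3 members for CGRP against IL-33, 4 for CGRP against NMU, and 0 elsewhere, and 0 genes for IL-33 against IL-7. With 2 libraries per group, a library left alone in its group was assumed to vary like the others.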
